A study of Drosophila melanogaster with 4 samples.

Results

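Su(var)3-7 was mapped by chromatin immunoprecipitation and sequencing (ChIP-seq), and the 310 enriched regions described here, called clusters, lay in the last 3 Mb of chromosome arm 2L before the centromere. They were all clusters of the replicate-set list on 2L that started above position 20011544 of the 23011544 bp arm (FlyBase release 5), and made up 310 of the 11471 enriched clusters in that list. The choice used position only. Chromatin came from nuclei of wild-type *Drosophila melanogaster* larvae of the Oregon-R strain at the 3rd larval instar. The groups were 2 libraries precipitated with the Su(var)3-7 antibody Q3448 and 2 input libraries, and each input shares its replicate number with 1 ChIP library. The labels named no tissue, so each value averages over the cells of the larva whose nuclei were taken. Whether the replicates are separate collections of larvae is not stated in the labels, and the SDs below may measure technical spread alone. Under the same limit, the list of replicate 1 held 237 clusters and that of replicate 2 held 207. None of the 5 regions marked as depleted in the replicate-set list lay in the window.

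Su(var)3-7 is a zinc-finger protein that binds the heterochromatin protein HP1 and works with the histone methyltransferase Su(var)3-9. Its loss weakens, and extra copies strengthen, the silencing of genes placed next to heterochromatin. The base of 2L is where the gene-rich arm passes into the transposon-rich heterochromatin around the centromere, which also holds active genes such as *light* that depend on this environment for normal expression. No release 5 annotation was used here, so clusters are given by position and not by gene.

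Within the assembled arm 2L, Su(var)3-7 clusters of both replicates covered the largest share of bases, and had the highest median enrichment, in the 1 Mb nearest the proximal end. Clusters covered 37.6% of the proximal 3 Mb in replicate 1 and 35.5% in replicate 2, against 6.51% and 5.56% of the rest of the arm. The mean was 36.6% ± 1.45 in the proximal 3 Mb and 6.03% ± 0.67 in the rest of 2L (SD, n = 2 each). The ratio of the shares was 6.09 ± 0.44 (SD, n = 2), and the replicates did not overlap between the regions. The window holds 13.0% of the length of the arm, but 46.4% of the bases under clusters on the arm in replicate 1 and 48.9% in replicate 2. By number of clusters per Mb the ratio was 2.84 ± 0.07 (SD, n = 2), because proximal clusters were also wider. An exact permutation test over 2 paired replicates goes no lower than a two-sided p of 0.5. Differences in cover, width and enrichment are therefore given with their spread and were not tested.

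Most of the signal lay in the innermost 1 Mb. There 66.9% of bases were under clusters in replicate 1 and 70.9% in replicate 2. From 1 to 2 Mb the shares were 27.5% and 22.3%, and from 2 to 3 Mb they were 18.4% and 13.4%. The order of the 3 zones was the same in both replicates, and the spread between replicates (SD 2.81, 3.69 and 3.48 percentage points) was smaller than the steps between neighbouring zones. By number, the replicate-set list held 87 members in the innermost 1 Mb, 123 from 1 to 2 Mb and 100 from 2 to 3 Mb. The numbers of clusters were 100, 78 and 59 in replicate 1 and 90, 75 and 42 in replicate 2. In windows of 100 kb, the first 9 from the end were each covered to at least 50% in both replicates. The next window outward reached 26.8% and 26.1%. Beyond it, 1 window of 20 (21811545 to 21911544) passed 50% again in replicate 1, at 61.3%, with 49.5% in replicate 2.

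**Figure D1:**
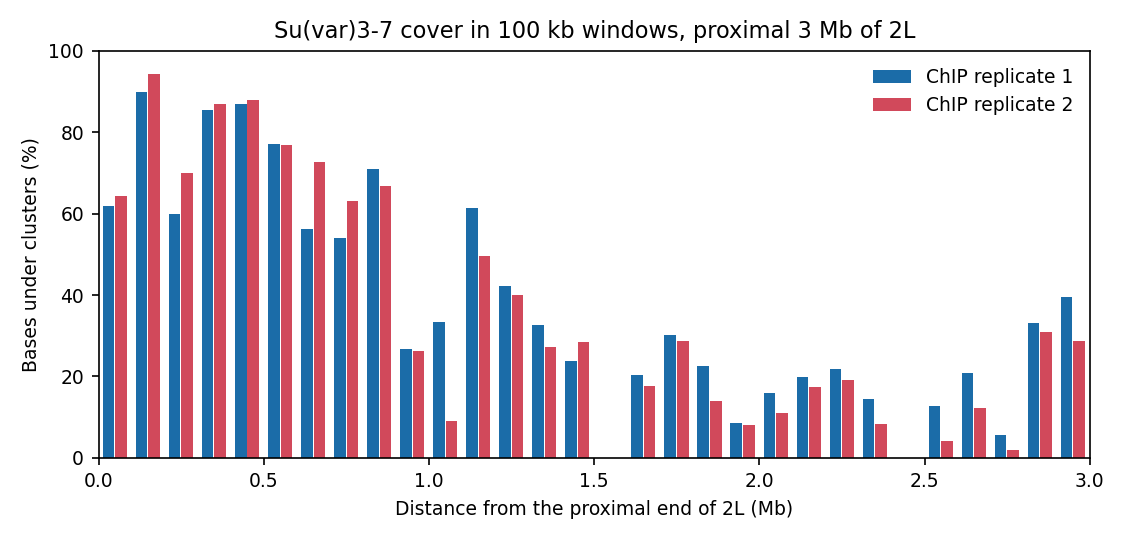
Percent of bases under Su(var)3-7 clusters (vertical axis) in consecutive 100 kb windows by distance from the proximal end of 2L (horizontal axis, Mb), with 1 bar per ChIP replicate. The 9 windows nearest the end lie between 53.9% and 94.2% in both replicates, and 2 windows farther out have no cluster.

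The outer edge of the 3 Mb did not coincide with a drop in cover. The next window along the arm, 3 to 4 Mb from the end, was 22.1% covered in replicate 1 and 14.9% in replicate 2, more than the zone from 2 to 3 Mb in each. It was the most covered of the 20 full 1 Mb windows in the rest of the arm, whose medians were 4.88% and 4.54%. Cover fell to 11.6% and 8.48% from 4 to 5 Mb and to 2.07% and 1.35% from 5 to 6 Mb. At the other end of the arm, the window from 22 to 23 Mb was 14.6% and 13.5% covered, which in replicate 2 was about as much as the zone from 2 to 3 Mb (13.4%). The last cluster outside the limit, 20003060 to 20005500, had a log2 enrichment of 0.38, and the first inside it, 20015101 to 20016285, had 0.30. Both were absent from both replicate lists.

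Enrichment is given as the authors' value for each cluster, taken here as the log2 ratio of ChIP over input. In the replicate lists the median was 0.77 and 0.75 in the proximal 3 Mb, against 0.59 and 0.61 in the rest of 2L. The difference was 0.16 ± 0.03 on the log2 scale (SD, n = 2), or 1.12-fold. In the replicate-set list the medians were 0.46 in the proximal 3 Mb and 0.42 in the rest, a difference of 0.04. The innermost 1 Mb carried the difference in medians: its own were 1.14 in both replicates. From 1 to 2 Mb they were 0.67 and 0.65, and from 2 to 3 Mb 0.65 and 0.64. Those outer values lay inside the range of the 1 Mb windows in the rest of the arm, which was 0.55 to 0.71 in replicate 1 and 0.52 to 0.70 in replicate 2. The cover of those windows ranged from 1.75% to 22.1% in replicate 1 and from 1.35% to 14.9% in replicate 2. Cover from 1 to 2 Mb from the end (27.5% and 22.3%) lay above that range. From 2 to 3 Mb, cover (18.4% and 13.4%) lay within the range, as the median enrichment did, but above the medians of 4.88% and 4.54%. Means weighted by cluster width gave another picture. They were 0.79 and 0.75 from 1 to 2 Mb and 0.90 and 0.92 from 2 to 3 Mb, against 0.70 and 0.72 in the rest of 2L.

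**Figure D2:**
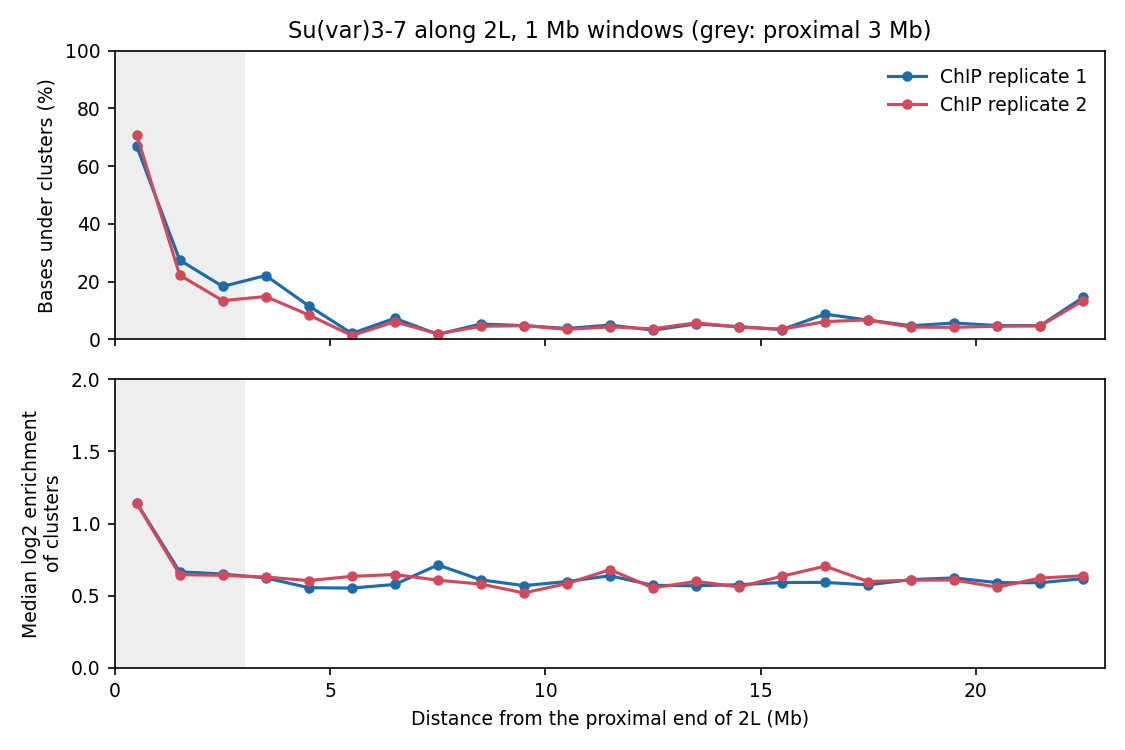
Percent of bases under clusters (upper panel) and median log2 enrichment of clusters (lower panel) in 1 Mb windows along 2L, by distance from the proximal end in Mb, with 1 line per ChIP replicate and the proximal 3 Mb shaded. The innermost window stands above all others in both panels (66.9% and 70.9% covered, median 1.14 in both replicates), while the windows from 1 to 4 Mb have covers of 13.4% to 27.5% and medians near those of the rest of the arm. The window from 22 to 23 Mb, at the far end, is 14.6% and 13.5% covered.

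Wide blocks held much of the sequence under clusters, with a share that differed between the lists. The median member was 2374.5 bp wide in the replicate-set list, and 33 members spanned 10 kb or more, a limit chosen after the values had been seen. Of these 33, 24 lay in the innermost 1 Mb, 6 from 1 to 2 Mb and 3 from 2 to 3 Mb. They held 45.4% of the bases of all members. In the same list, the rest of 2L had 8 such clusters among 1340, with 3.29% of the bases. The lists of replicates 1 and 2 had 21 and 22 such clusters in the window, with 36.5% and 44.0% of the bases. In the rest of 2L they had 3 and 0, with 2.83% and 0%. All 33 members of the replicate-set list were found in both replicates, as were all 8 in the rest of 2L. Of the 33, 21 were divided into 2 or more clusters in replicate 1 and 18 in replicate 2. The log2 values of the 33 lay between 0.65 and 2.25, with a median of 1.42.

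The widest member, 22579018 to 22658757, spanned 79.7 kb at a log2 enrichment of 1.32. In replicate 1 it appeared as 2 clusters with a width-weighted mean of 1.28, and in replicate 2 as 1 cluster of 78.6 kb at 1.40. The next was also the most proximal and the highest of those found in both replicates: 22955594 to 22986029, of 30.4 kb, had 2.25 in the replicate set, 2.27 in replicate 1 and 2.22 in replicate 2. It was a single block with nearly the same edges in each list, and no list had a cluster in the 25.5 kb between it and the end of the assembled arm. The block 22680587 to 22710688 (30.1 kb, 1.54) had 1.38 and 1.65 in the replicates. The remaining 3 of the 6 widest were 22531130 to 22559124 (28.0 kb, 1.59), 22743878 to 22770739 (26.9 kb, 1.89) and 22840942 to 22866156 (25.2 kb, 1.22). All 6 ended between 25.5 and 452.4 kb from the end of the arm, and clusters of each replicate covered 84.6% to 99.9% of them.

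The 8 highest members found in both replicates all lay in the innermost 1 Mb. Second to the most proximal block was a narrower site, 22259899 to 22266426. It spanned 6.53 kb and had 2.19 in the replicate set, 2.10 in replicate 1 and 2.27 in replicate 2. It lay 745 kb from the end, apart from the widest blocks. The others were 22743878 to 22770739 (1.89), 22885681 to 22910725 (1.84), 22506903 to 22531081 (1.78), 22475901 to 22498583 (1.74), 22419574 to 22444560 (1.72) and 22711607 to 22718795 (1.71). In each of the 8, the replicates differed by at most 0.17 on the log2 scale. Members at a log2 value of 1 or more (2-fold over input on the scale taken here) numbered 49, of which 41 lay in the innermost 1 Mb.

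Outside that zone the strongest member was at the far edge of the window. The block 20176488 to 20198303, 21.8 kb wide, had 1.57 in the replicate set, 1.52 in replicate 1 and 1.60 in replicate 2, and ended 2813 kb from the proximal end. Farther out, 20115276 to 20122163 (6.89 kb) had 1.12 in the replicate set, 1.15 in replicate 1 and 1.30 in replicate 2. The wider block 20080025 to 20098737 (18.7 kb) had 1.04, with 1.16 and 1.02 in the replicates. Away from that edge but still 2 to 3 Mb from the end, 20636228 to 20639149 (2.92 kb) had 1.10, with 1.23 and 1.08. There too, 20797580 to 20803899 (6.32 kb) had 1.05, with 1.24 and 0.88. The zone from 1 to 2 Mb held 2 sites of like strength, 21396377 to 21402175 (1.40, with 1.27 and 1.68 in the replicates) and 21647878 to 21653109 (1.37, with 1.07 and 1.70). The members named in this paragraph were chosen after their values had been seen.

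Joined across gaps under 5 kb, the 310 members formed 66 domains, of which 19 were single clusters. The 4 longest held 77 members and 46.2% of the bases of all members. The longest, 22506903 to 22789534, ran for 282.6 kb through 20 clusters and was 83.1% covered in replicate 1 and 86.5% in replicate 2. The second, 22803058 to 22986029, ran for 183 kb to the last cluster of the arm and was 84.2% and 89.2% covered. The fourth, 22139982 to 22301844 (161.9 kb), was 70.0% and 74.3% covered. The third differed from these in strength. Lying 1.1 Mb from the end, 21741253 to 21911318 (170.1 kb, 27 clusters) had width-weighted means of 0.80 in replicate 1 and 0.67 in replicate 2 on the log2 scale, whereas the other domains of the 4 had means of 1.15 to 1.57 and 1.18 to 1.70. Its cover was 59.7% and 49.8%.

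Binding was interrupted by long stretches without any cluster. The longest, 20463499 to 20636227, measured 172.7 kb, and the second, 21410656 to 21544189, measured 133.5 kb. Neither replicate had a cluster in them, and each contained a whole 100 kb window at 0%. The third, 20016286 to 20058615 (42.3 kb), lay at the far edge. Assembly gaps and positions at which reads cannot be placed uniquely were not removed, and their part in these stretches was not tested. Of neighbouring members, 10 pairs were more than 20 kb apart, and 0 of these pairs lay within the innermost 1 Mb. The median gap between neighbours was 997 bp there, 1714.5 bp from 1 to 2 Mb and 2335 bp from 2 to 3 Mb.

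Support by replicate followed the same gradient. Of the 310 members, 147 (47.4%, 95% exact binomial interval 41.7 to 53.1%, for counting error only) overlapped a cluster of both replicates by at least 1 bp. Over all 11471 clusters of the list the share was 30.7%, and in the rest of 2L it was 21.9%. Those 147 accounted for 81.2% of all bases under members. A further 66 were found in 1 replicate, 40 in replicate 1 and 26 in replicate 2, and 97 (31.3%) in neither. In the rest of 2L, 50.6% of clusters were found in neither. The share found in both was 74.7% in the innermost 1 Mb, 39.8% from 1 to 2 Mb and 33% from 2 to 3 Mb. Because the replicate-set list comes from the same libraries, the shares are no independent evidence of binding.

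Width and support moved together. Of the 129 members under 2 kb, 3.88% were found in both replicates, against 64.5% of the 107 members of 2 to 5 kb and 97.6% of the 41 of 5 to 10 kb. In the rest of 2L these shares were 3.17%, 51.2% and 90.4%. A wider cluster meets an overlap rule of 1 bp more readily by position alone. Enrichment at like width separated the regions only among wider clusters. The median log2 value of the replicate set was 0.37 in the proximal 3 Mb and 0.40 in the rest of 2L under 2 kb, and 0.46 and 0.47 at 2 to 5 kb. It was 0.88 and 0.57 at 5 to 10 kb, and 1.42 and 0.95 at 10 kb or more. The last pair rests on 33 members and 8 clusters. Over the 310 members, Spearman's rho between width and log2 value was 0.71, given as a description of clusters that share libraries and input.

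**Figure D3:**
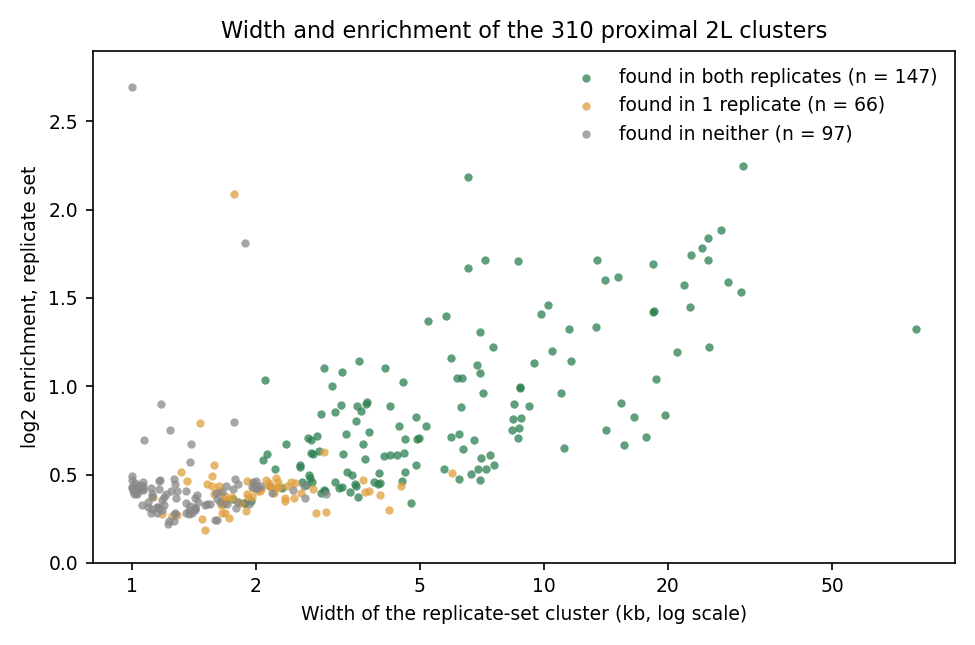
Log2 enrichment in the replicate-set list (vertical axis) against width in kb (horizontal log axis) for the 310 members, coloured by the number of replicates in which each was found. The 33 members of 10 kb or more were all found in both replicates, and 3 narrow points above 1.8 at the upper left were not.

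A few of the highest values sat on narrow clusters without that support. The highest of all members, 22337375 to 22338375, was 1001 bp wide, the narrowest width in the list. It had a log2 value of 2.69, was found in neither replicate, and had a value that 22 clusters of the list share exactly. The cluster 22795711 to 22797590 (1.88 kb, 1.81) was also found in neither, as were 22333274 to 22334454 (1.18 kb, 0.90) and 21408880 to 21410655 (1.78 kb, 0.80). The last of these borders the second-longest stretch without clusters. At the proximal edge of the longest domain, 22787764 to 22789534 (1.77 kb) had 2.09 in the replicate set and 2.83 in replicate 1, the highest replicate value in the window, but replicate 2 had no cluster there. The next highest found in 1 replicate was 22785216 to 22786681, with 0.79 in the replicate set and 1.07 in replicate 2. It was followed by 20428771 to 20431705 (0.63, with 0.91 in replicate 1) and 21997142 to 21998729 (0.56, with 0.58 in replicate 1). The number of reads behind these values is unknown. The 97 members found in neither replicate were 1276 bp wide at the median, with a median log2 value of 0.39. Of these 97, 51 were narrower than the narrowest replicate cluster (1301 bp). A like share was seen in the rest of 2L, with 368 of the 678 clusters found in neither. At the low end of the members, 22106116 to 22107622 had the smallest log2 value, 0.19, and was found in replicate 2 at 0.37. The next lowest, 21791699 to 21792921 (0.22) and 21920472 to 21921739 (0.23), were found in neither replicate. So were 3 of the narrowest members, all 1001 bp wide, at 20257548 to 20258548, 20877339 to 20878339 and 21031544 to 21032544, with log2 values of 0.49, 0.43 and 0.47.

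The replicates were compared by position and by level. Of the bases that either replicate placed under a cluster, 75.7% were shared in the proximal 3 Mb, against 41.6% in the rest of 2L. The share was 86.7% in the innermost 1 Mb, 61.4% from 1 to 2 Mb and 57.4% from 2 to 3 Mb. A densely covered region overlaps more by position alone, and that part was not tested. Of the replicate 1 clusters in the window, 187 of 237 (78.9%) overlapped a replicate 2 cluster, and 179 of 207 (86.5%) overlapped in the other direction. The shares in the rest of 2L were 57.8% and 65.6%. The replicate clusters without a partner were weaker and narrower: their median log2 values were 0.56 in replicate 1 and 0.59 in replicate 2, against 0.88 and 0.78 for those with one.

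For the 96 members that overlapped exactly 1 cluster of each replicate, Pearson's r between the replicate log2 values was 0.85 and Spearman's rho 0.79. This describes clusters that share libraries, and 4 of the 96 share a replicate cluster with a neighbouring member. Without those 4, r was 0.84 and rho 0.78. The median difference, replicate 2 minus replicate 1, was 0.003, and 81 of the 96 (84.4%) had replicate values within 0.25 of each other. In the rest of 2L this held for 204 of 236 (86.4%), with an r of 0.73 and a rho of 0.50. Over all replicate clusters, log2 values were more spread in the window, so r and rho are not directly comparable between the regions. The quartiles were 0.58 and 1.15 in replicate 1 and 0.59 and 1.14 in replicate 2. In the rest of 2L they were 0.53 and 0.69, and 0.54 and 0.71. Among the 96, the largest difference was at 21729803 to 21731910, with 0.45 in replicate 1 and 1.48 in replicate 2. The next were 21647878 to 21653109 (1.07 and 1.70), 22778358 to 22781603 (0.87 and 1.47) and 20150065 to 20152940 (1.32 and 0.76). All 4 were at most 5.23 kb wide, and 3 of them were higher in replicate 2.

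**Figure D4:**
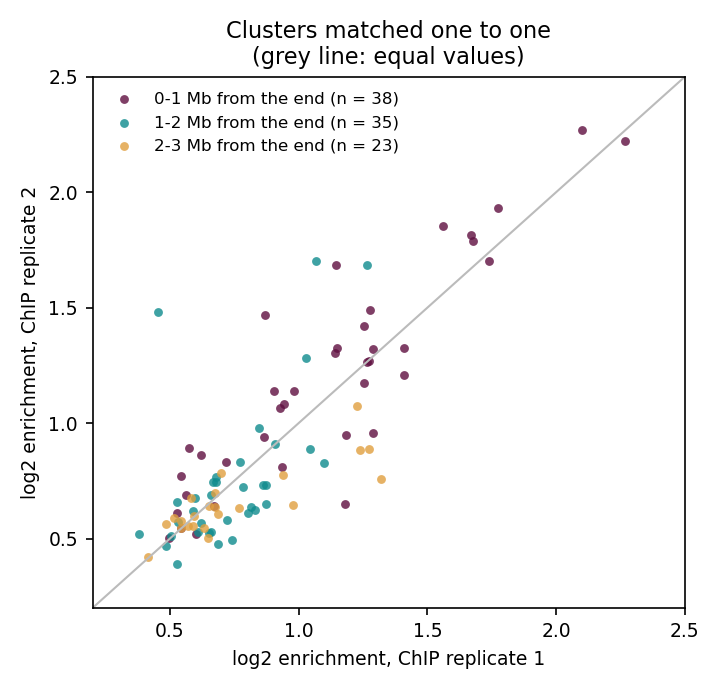
Log2 enrichment in ChIP replicate 2 (vertical axis) against ChIP replicate 1 (horizontal axis) for the 96 members that overlapped exactly 1 cluster of each replicate, coloured by zone, with a grey line at equal values. Points from the innermost 1 Mb (n = 38) reach 2.27, and most points lie within 0.25 of the line.

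The replicates differed in where they had more cover. Replicate 2 was the more covered in 7 of the 10 windows of 100 kb nearest the end, and replicate 1 in 17 of the other 20, with 2 of the 20 at 0% in both. The largest gap was in the window 21911545 to 22011544, with 33.2% in replicate 1 and 9.12% in replicate 2. The depth of the libraries is unknown, so its part in this was not tested.

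The window was then set beside the regions most like it. In the proximal 3 Mb of 3L, clusters covered 49.0% and 47.1% in replicates 1 and 2, so that 2L had 0.76 ± 0.01 of the cover of 3L (SD, n = 2). The median log2 enrichment of 2L clusters was lower by 0.07 in replicate 1 and by 0.16 in replicate 2 (0.77 and 0.75 on 2L, 0.85 and 0.91 on 3L). Clusters of 10 kb or more were 8.86% and 10.6% of the clusters on 2L and 10.7% and 11.5% on 3L. The scaffold 2LHet, 0.37 Mb of heterochromatin assigned to the same arm, was 42.0% and 51.0% covered. Its clusters were the more enriched, with medians of 1.27 and 1.47, and the difference, 2L minus 2LHet, was -0.61 ± 0.16 (SD, n = 2). The innermost 1 Mb of 2L, at 66.9% and 70.9%, was more covered than 2LHet in both replicates, while its medians of 1.14 in each were lower. The overlap of the replicates (bases under both over bases under either) was much alike in the proximal 3 Mb of 2L (75.7%) and of 3L (75.4%). It was 69.5% in 2LHet.

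**Figure D5:**
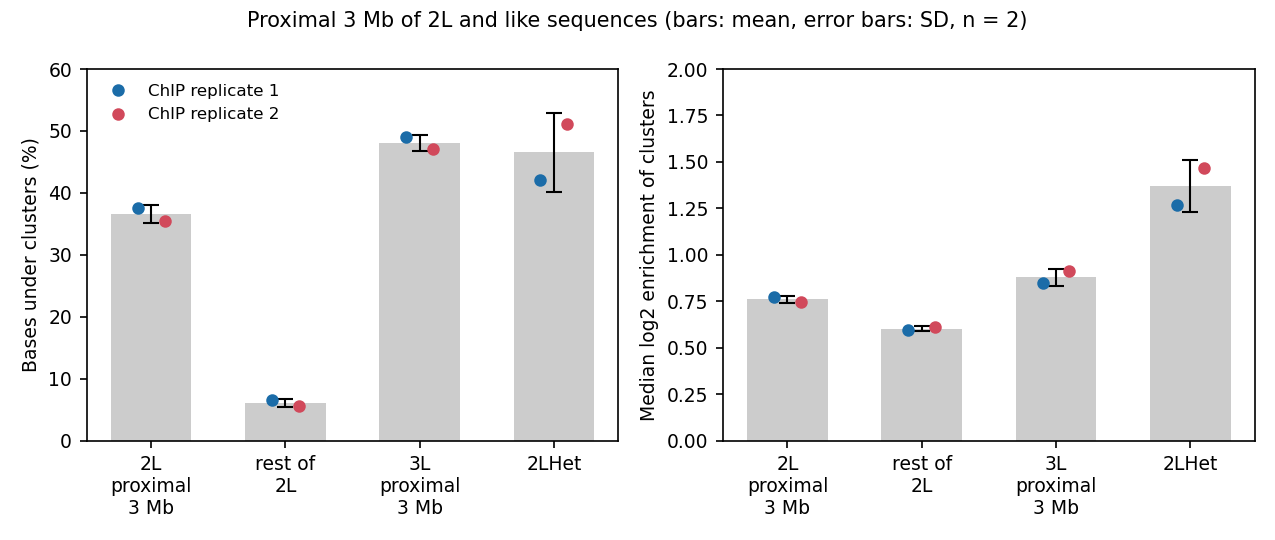
Percent of bases under clusters (left panel) and median log2 enrichment of clusters (right panel) in the proximal 3 Mb of 2L, the rest of 2L, the proximal 3 Mb of 3L and the scaffold 2LHet. Bars are means and error bars SDs over the 2 ChIP replicates, drawn as points. The proximal 3 Mb of 2L (36.6% and 0.76) lies above the rest of 2L and below 3L and 2LHet in both panels.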

How the data were processed

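Bowtie 0.12.7 is named in the submitters' processing notes. The authors deposited 3 lists of regions on FlyBase release 5, per the file headers: 1 for each ChIP replicate and 1 for the replicate set. How clusters were called and how the replicates were joined is not given in the sources used here. Each cluster carries 1 value, taken here as the authors' log2 ratio of ChIP to input. The log2 scale was inferred from repeated values exactly 1 apart. The lists hold no read counts, so the depth behind each value is unknown.

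Cover, overlap (at least 1 bp), gaps, domains and medians were computed with Python 3.11.15, numpy 2.4.6, pandas 2.3.3 and scipy 1.17.1, and were checked on simulated clusters at known positions. A replicate value of a member is the mean over its replicate clusters, weighted by overlap. Cover counts all bases in a window, and a cluster belongs to the region that holds its start. Regions were named by rule: the 8 highest members found in both replicates, the 6 widest, the 4 highest found in 1 replicate and in neither, the 4 largest replicate differences, the members at each edge, the 3 lowest and 3 narrowest, the 3 longest gaps and the 4 longest domains. Any other named region is said to be chosen later. The members, zones and lists were chosen with earlier results of these data known. Alternatives covered scoring, width, merging, list, window and overlap rule. The reference table given was of release 6 and was not used for positions.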

Additional observations from a re-analysis of the deposited data

How the results depend on the processing

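The ratio of cover and the difference in median log2 value between the proximal 3 Mb and the rest of 2L kept their direction under the alternatives given here, but not their size. Other differences from the rest of 2L were not recomputed. In the replicate-set list, the log2 difference at like width held only among clusters of 5 kb or more. The replicate lists were not split into width classes. With clusters at or above the median value of each list, cover was 29.1%, the ratio 14.6 and the log2 difference 0.26. With a width minimum of 2 kb these were 32.8%, 8.89 and 0.21, in the replicate-set list 49.8%, 3.40 and 0.037, with a window of 2 Mb 46.9%, 7.27 and 0.21, and with a window of 4 Mb 32.0%, 5.96 and 0.10. The ratio was 2.84 by clusters per Mb, and the log2 difference 0.50 as a mean weighted by width. Without 1 replicate, cover was 35.5% to 37.6%, the ratio 5.78 to 6.40, the log2 difference 0.14 to 0.18 and the domain length 0.9 Mb. The share of members found in both replicates was 39.4% where at least 50% of the member had to be covered in each replicate and 12.9% at 90%. It was 84.1% among members at or above the median value of the list, 78.5% with a width minimum of 2 kb, 54.3% with a window of 2 Mb and 41.3% with a window of 4 Mb. The domain covered to at least 50% was 0.9 Mb long in 100 kb windows in each replicate, 1.125 Mb on average in 250 kb windows (1.25 Mb in replicate 1 and 1 Mb in replicate 2) and 1.25 Mb on average at 20% cover (1.5 Mb and 1 Mb). Overlap of the replicates stayed between 71.1% and 79.3%, and merging of clusters closer than 1 kb gave a cover of 37.3% and a ratio of 6.05. No paired analysis was possible because the shared replicate numbers link ChIP to input, and the input libraries have no values of their own here. Ratios and differences between regions were formed within each replicate, with no test.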
